A study of Mus musculus with 4 samples.

Results

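The genes described here are 35 targets, regulators and effectors of p53 and the DNA damage response, read in single cells of tumour-draining lymph nodes of mice. They were chosen by gene symbol, and all 35 were found once among the 31053 genes of the deposited table. p53, encoded by Trp53, is a transcription factor held at a low level by the ubiquitin ligase Mdm2 and stabilised when DNA is damaged. It then raises genes that halt the cell cycle, repair DNA or trigger apoptosis, and it also raises Mdm2, which closes a feedback loop. Germinal centre B cells and dividing T cells copy their DNA quickly, and several genes of this set are also controlled by routes that do not need p53.

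The study examined inflammatory dendritic cells under inhibition of the kinase BTK and of the IDO pathway of tryptophan breakdown. C57BL/6J mice carried B16F10 tumours, a transplantable melanoma line, in both thighs, and the inguinal nodes that drain the tumours were taken. The control group held 2 untreated tumour-bearing mice. The treated group held 2 tumour-bearing mice that drank indoximod, an IDO pathway inhibitor, at 2 mg/ml from day 9, were injected daily with 350 ug of ibrutinib, which inhibits BTK, from the same day, and on day 10 received 150 mg/kg of cyclophosphamide. Both groups were sampled 48 hours after that dose. Cyclophosphamide is an alkylating agent that crosslinks DNA, the kind of lesion to which p53 responds. The cell barcodes carry library numbers 1 to 4, and no table used here ties a number to a mouse or a group. The effect of treatment on these genes is therefore not analysed here, libraries are given one by one, and differences between libraries hold treatment, mouse and preparation together.

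Libraries held between 6978 and 9831 barcodes and between 39589629 and 53643414 unique molecular identifiers (UMIs, each counting 1 captured RNA molecule). A minimum of 300 genes and a maximum of 10% mitochondrial UMIs per barcode left 26096 cells, of which 17108 fell into 1 of 15 gates set on marker genes that include none of the 35. The largest gates were B-like (8137 cells), CD8 T-like (4834), CD4 T-like (2510), mature dendritic cell (DC)-like (422), regulatory T-like (270), germinal centre B-like (263), dividing T-like (185) and gamma-delta T-like (140). Lymphocyte gates made up most gated cells, as in a lymph node, and 2 cells carried melanocyte markers. The germinal centre gate held 124 and 131 cells in libraries 1 and 2 and 5 and 3 cells in libraries 3 and 4, so it was compared in libraries 1 and 2 alone. Markers not used for gating went with the names, such as Pax5 and Ebf1 in B-like cells and Ccr7 and Relb in mature DC-like cells. A gate set on monocyte and type 2 DC markers was led by S100a8, S100a9, Lyz2 and Retnlg, genes of neutrophils and monocytes, and is called the mixed myeloid gate (72 cells). A further gate of 48 dividing cells with B cell genes was led by Cxcl13, a stromal chemokine, and stays unnamed. Between libraries, 86 barcode sequences were shared, of 30738 distinct ones.

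Levels are UMIs of a gene per 1000000 UMIs of the gate (CPM). For a gene to count as higher or lower in a gate, its CPM ratio to the other gate had to be at least 1.5-fold the same way in every library with 20 cells or more on both sides, given an expected count of at least 5 on the smaller side. That is a rule of size, not a significance test. For each comparison the main count of members is therefore set beside the share of all tested genes that met it. Of the 35 members, 29 could be tested in at least 1 of 7 gate comparisons and 23 met the rule in at least 1. The matching share of all genes over the 7 comparisons is not given here, so these 2 counts are no result about the members. Intervals are exact 95% intervals of counting error only.

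**Figure D1:**
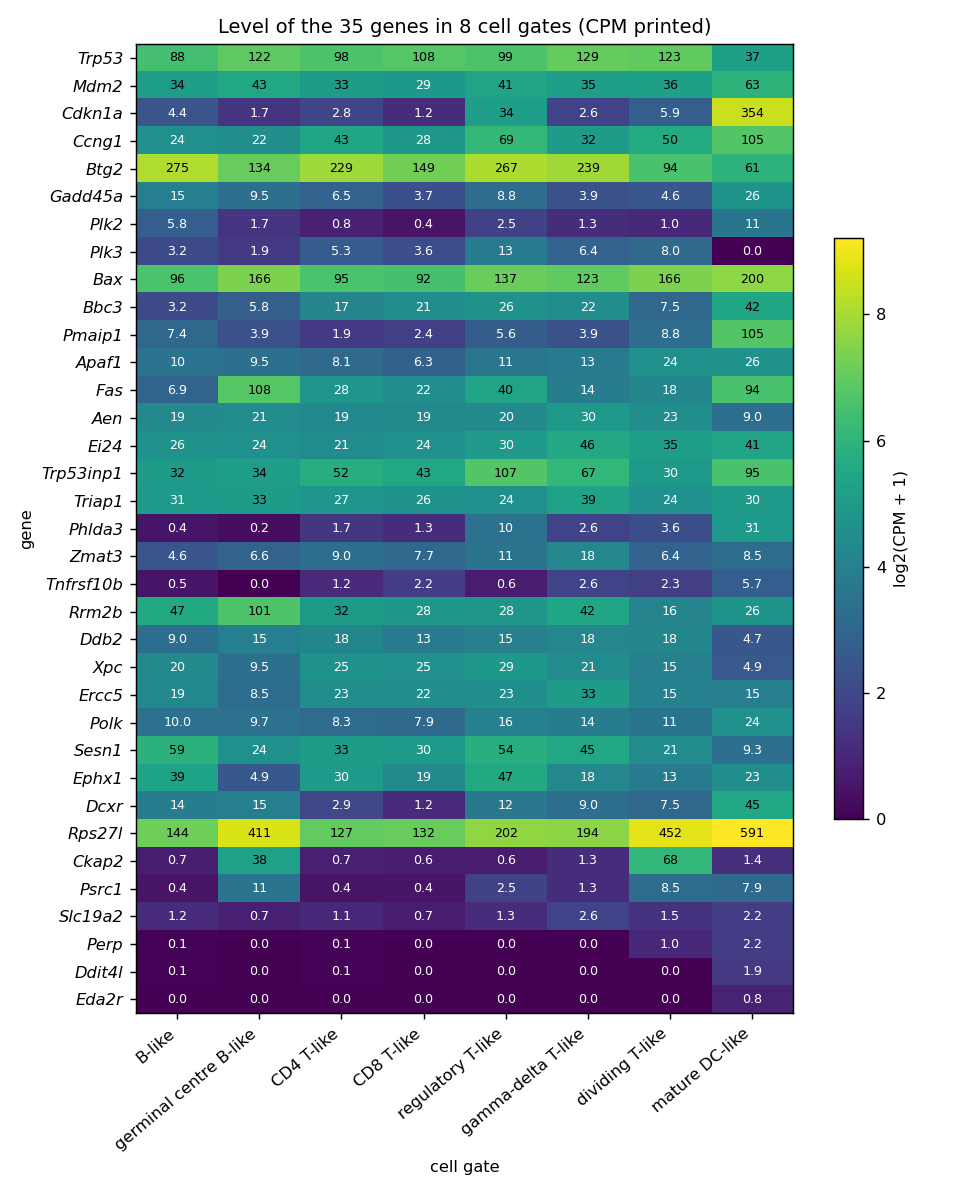
Level of each of the 35 genes (rows) in 8 cell gates (columns), as CPM over all libraries, coloured by log2(CPM + 1) with the CPM printed in each box. Cdkn1a stood at 354 CPM in mature DC-like cells and at 1.24 to 33.8 CPM in the 7 lymphocyte gates, whereas Trp53 lay at 36.9 CPM in mature DC-like cells and at 87.5 CPM or more in each lymphocyte gate.

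The sequences shown first are those that tie members to p53 by letters. The p53 response element, a pair of 10-base repeats without a spacer, was searched with the 4 core bases of each repeat intact and at most 2 mismatches elsewhere; the element is its own reverse complement in form, so 1 search covers both strands. The windows ran from 250 bases before to 50 bases after each RefSeq start site (build GRCm38.p6). It was present in 52 of 32851 windows (0.158%), or 51 of 27025 genes (0.189%). RefSeq windows were matched for 27 of the 35 members, and 3 of these (11.1%) held the element: Cdkn1a, Rps27l and Ckap2. The matched element is in capitals with 5 bases on each side.
Cdkn1a: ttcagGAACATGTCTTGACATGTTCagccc
Rps27l: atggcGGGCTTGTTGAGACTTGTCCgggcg
Ckap2: tctgaAGACATGTCCTGACTTGTCAagcct
The Cdkn1a stretch lies on the plus strand at chr17:29090923-29090952, 24 bases before the GENCODE gene, and its element begins 51 bases before the RefSeq start with 1 mismatch. The Rps27l stretch lies on the plus strand at chr9:66946291-66946320, inside an intron of the longer GENCODE gene model, with its element beginning 117 bases before the RefSeq start and 1 mismatch. The Ckap2 stretch is read on the minus strand at chr8:22185998-22186027, 179 bases before the GENCODE gene, with 2 mismatches. A match describes these letters and is no evidence of binding, and the 24 matched members without one may carry the element elsewhere.

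Trp53 and Mdm2, the switch and its brake, were read in every large gate. Trp53 (chr11:69580359-69591873) measured 86.5, 90.9, 92.1 and 82.4 CPM in B-like cells of libraries 1 to 4. The corresponding levels were 96.9, 106, 103 and 89.3 CPM in CD4 T-like cells and 107, 109, 110 and 105 CPM in CD8 T-like cells. Mature DC-like cells had 31.3, 34.5, 44.3 and 35.9 CPM, below every library of those 3 gates. Mdm2 (chr10:117688875-117710758) ran the other way. It measured 35.6, 36.9, 33.3 and 30.7 CPM in B-like cells, 32.7, 39.0, 33.0 and 28.7 CPM in CD4 T-like cells, and 31.2, 29.3, 31.7 and 26.0 CPM in CD8 T-like cells. In mature DC-like cells it stood at 64.0, 70.6, 60.1 and 60.8 CPM, above all 12 lymphocyte values. Against B-like cells the log2 ratio was -1.27 for Trp53 (95% interval -1.5 to -1.0) and 0.91 for Mdm2 (0.69 to 1.10), and both met the rule.

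Mature DC-like cells, DCs that have switched on Ccr7 and migrate to or within nodes, had more Cdkn1a, Pmaip1, Fas, Ccng1 and Rps27l than B-like cells and less Trp53, Sesn1 and Btg2. Of 23 members tested, 10 were higher and 4 were lower. Of the 7669 genes tested in all, 14.5% were higher and 24.6% lower. Cdkn1a, Pmaip1 and Fas passed the count filter only through their high mature DC-like level, so a gene passing that way had to differ. With the expected count taken from B-like cells alone, a filter added after seeing the data, 7 of 20 members were higher (35%) and 4 lower (20%), beside 12.2% and 25.8% of all 7520 genes tested. The median log2 ratio was then 0.36 over the members and -0.29 over all genes. Mature DC-like cells were deeper, at a median of 8200 UMIs per cell against 3785, and had fewer mitochondrial UMIs (a median of 3.24% against 5.43%); their part in the ratios was not tested.

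Cdkn1a (chr17:29090976-29100727) encodes p21, an inhibitor of cyclin-dependent kinases that halts the cell cycle and is the best known p53 target. It measured 388, 345, 360 and 337 CPM in mature DC-like cells of libraries 1 to 4 and 3.38, 5.48, 2.96 and 5.47 CPM in B-like cells. All 4 mature DC-like values lay far above all 4 B-like values. The log2 ratio was 6.37, with libraries between 5.94 and 6.93. A Cdkn1a UMI was found in 67.1% of mature DC-like cells (exact 95% interval 62.4% to 71.5%), against 0.799% of B-like cells (0.617% to 1.02%), at the median depths given above. The transcripts were spread over the gate: the 4 richest cells held 7.26% of the 1295 UMIs. Beyond these gates Cdkn1a stood at 95.1 CPM in the mixed myeloid gate (50 UMIs), 65.7 CPM in macrophage-like cells (8 UMIs in 103 cells), 19.1 CPM in type 1 DC-like cells (4 UMIs in 32 cells) and 3.39 CPM in plasmacytoid DC-like cells (1 UMI in 40 cells). In the same order, 31.9%, 17.5%, 15.6% and 12.5% of the cells of these gates carried a marker of the mature DC gate. Whether the Cdkn1a UMIs lay in those cells is not given here.

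**Figure D2:**
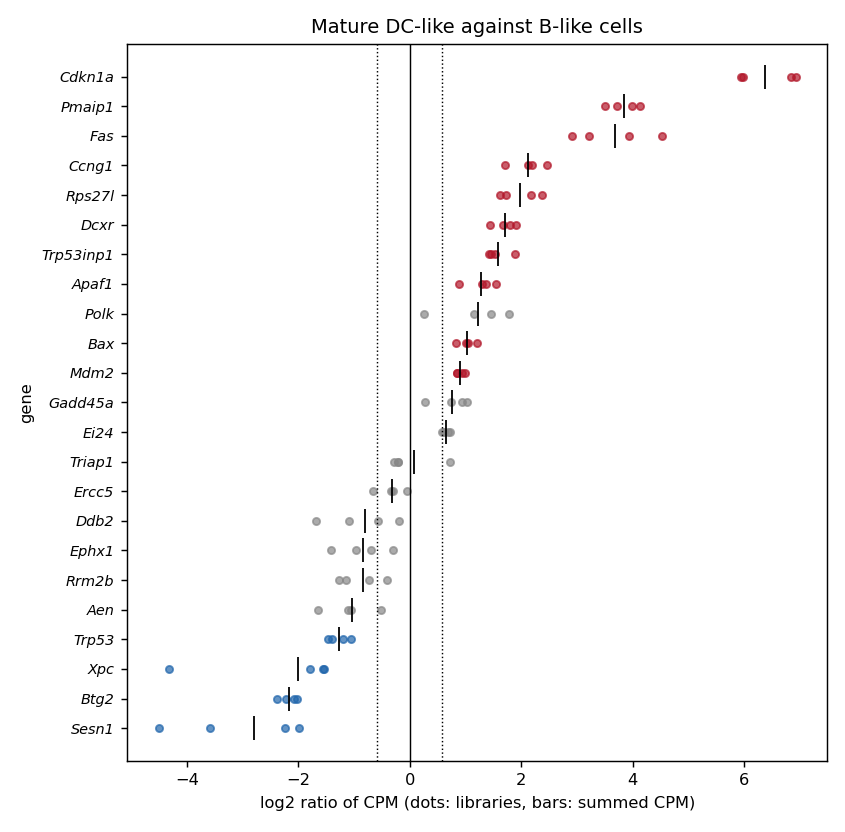
Log2 ratio of CPM in mature DC-like over B-like cells for the 23 members tested, 1 row per gene; dots are the 4 libraries, black bars the ratio of CPM summed over libraries, and dotted lines the 1.5-fold limits. Red dots mark the 10 members called higher, led by Cdkn1a at 6.37, and blue dots the 4 called lower, down to Sesn1 at -2.80.

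Among the death effectors, Pmaip1, which encodes the BH3-only protein Noxa, measured 121, 107, 73.8 and 118 CPM in mature DC-like cells against 6.89, 6.68, 6.49 and 8.97 CPM in B-like cells (log2 ratio 3.85). The gates did not overlap. Fas, the death receptor, measured 61.2, 72.1, 123 and 102 CPM against 8.14, 7.75, 5.35 and 6.64 CPM (log2 ratio 3.68). Bax, the pore-forming effector of mitochondrial apoptosis, measured 169, 202, 194 and 219 CPM against 95.7, 98.4, 95.9 and 94.6 CPM, a smaller difference (log2 ratio 1.03) that held in all 4 libraries. Bax shares same-strand exons with the annotated gene Gm45808, and 15.6% of the 60-base words near its transcript ends, so its counts are uncertain. Apaf1, the scaffold of the apoptosome, had a log2 ratio of 1.28, and Trp53inp1, a p53 cofactor, one of 1.59. Bbc3, which encodes Puma, fell short of the expected count and was not tested; it measured 21.3, 64.3, 51.6 and 36.6 CPM in mature DC-like cells.

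Other members higher in mature DC-like cells were Ccng1, Rps27l and Dcxr. Ccng1 encodes cyclin G1, a p53 target that recruits a phosphatase to Mdm2. It measured 84.0, 110, 115 and 108 CPM in mature DC-like cells, 25.8, 25.2, 20.7 and 23.4 CPM in B-like cells, 43.2, 50.3, 40.7 and 38.0 CPM in CD4 T-like cells, and 29.6, 30.6, 25.4 and 27.5 CPM in CD8 T-like cells. Its level in mature DC-like cells exceeded every lymphocyte value in these 3 gates, and its log2 ratio to B-like cells was 2.13. Rps27l, a ribosomal protein paralogue induced by p53, had a log2 ratio of 1.99 and Dcxr, a carbonyl reductase, one of 1.71. Phlda3, a repressor of Akt signalling, also fell short of the expected count. It measured 18.5, 29.8, 39.0 and 31.5 CPM in mature DC-like cells and 0.250, 0.534, 0.342 and 0.538 CPM in B-like cells. Phlda3 stood at 0.876, 2.37, 2.96 and 0.730 CPM in CD4 T-like cells and at 1.03, 1.49, 1.07 and 1.55 CPM in CD8 T-like cells, so no library of these 3 gates reached the lowest mature DC-like one.

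The same cells were low in other members. Sesn1, a stress sensor that restrains mTORC1, measured 12.8, 3.14, 4.21 and 13.9 CPM against 60.2, 71.2, 50.6 and 55.6 CPM in B-like cells (log2 ratio -2.80). Btg2, an antiproliferative gene abundant in resting lymphocytes, measured 64.0, 73.7, 50.6 and 60.1 CPM against 297, 299, 263 and 253 CPM (log2 ratio -2.16). Xpc, the damage sensor of nucleotide excision repair, had a log2 ratio of -2.0 on 18 UMIs. Each of these, like Trp53, was lower in all 4 libraries. Plk3, a stress-responsive kinase, had 0 UMIs in the 422 mature DC-like cells, which allows up to 0.821 CPM, against 3.19 CPM in B-like cells. The growth arrest gene Gadd45a (log2 ratio 0.77), the translesion polymerase gene Polk (1.23) and Rrm2b (-0.85), which supplies nucleotides for repair, were tested and did not meet the rule.

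**Figure D3:**
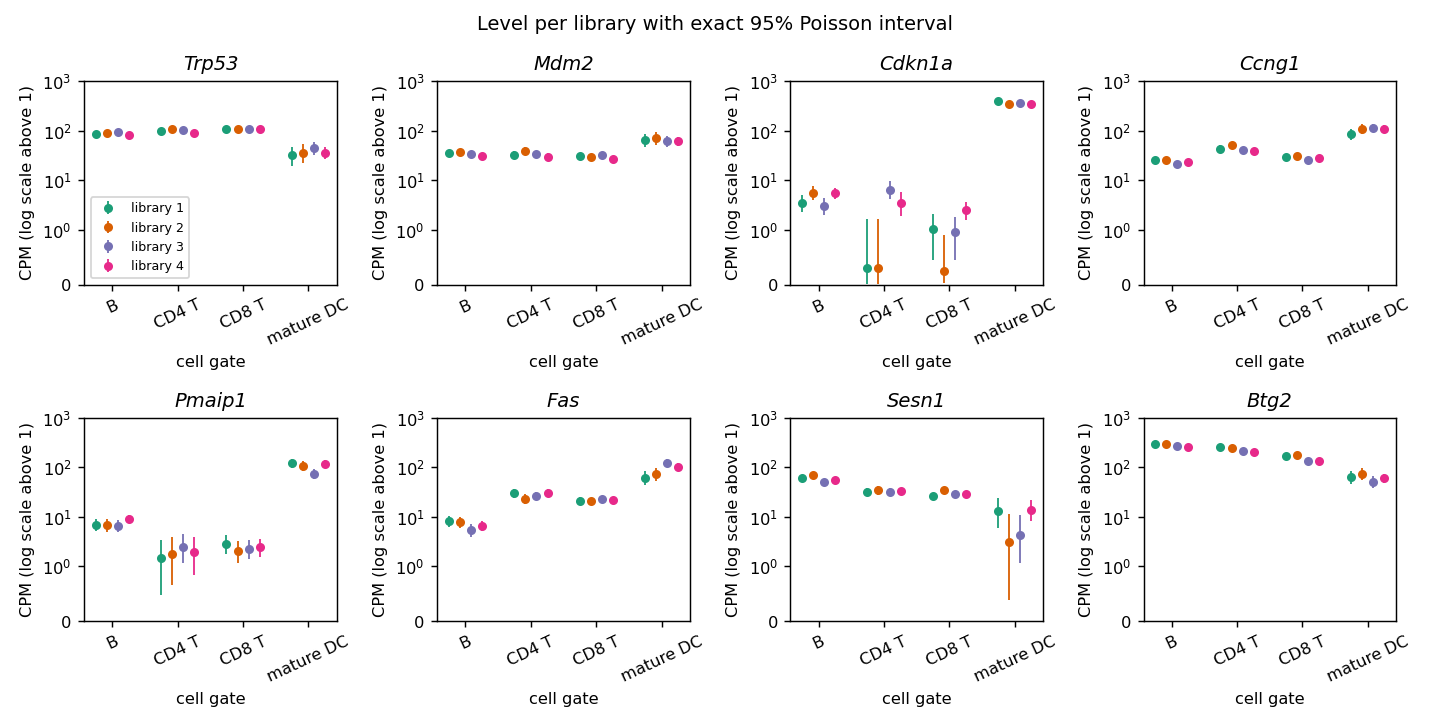
CPM of 8 members in B-like, CD4 T-like, CD8 T-like and mature DC-like cells, 1 point per library in 4 colours, with exact 95% Poisson intervals and an axis that is logarithmic above 1 CPM. Cdkn1a, Ccng1, Pmaip1, Fas and Mdm2 are higher, and Trp53, Sesn1 and Btg2 lower, in mature DC-like cells than in B-like cells of all 4 libraries.

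Cdkn1a was scarce in lymphocytes and its UMIs there were unevenly held. In CD4 T-like cells it measured 0.292, 0.296, 6.41 and 3.41 CPM in libraries 1 to 4, and in CD8 T-like cells between 0.249 and 2.43 CPM. Regulatory T-like cells stood at 33.8 CPM, but 53 of their 54 UMIs lay in 4 cells that also carried at least 1 of the 8 mature DC gate markers. The 196 regulatory T-like cells without such a marker held 1 Cdkn1a UMI (0.945 CPM, 95% interval 0.0239 to 5.27). Of the 74 with a marker, 65 had Socs2, 8 Il4i1, 7 Fscn1 and 6 Ccl22. The split of this gate is therefore mostly one on Socs2, and which markers the 4 cells carried is not given here. Likewise 40 of 42 UMIs in CD4 T-like cells and 38 of 44 in CD8 T-like cells lay in cells with such a marker, leaving 0.143 and 0.177 CPM in the others. In B-like cells, 111 of 155 UMIs lay in 161 cells with a UMI of Fscn1, Ccl22, Ccl17 or Apol7c (94.1 CPM), and the other 7976 cells stood at 1.29 CPM. With all such cells left out, a choice made after seeing the data, the log2 ratio of mature DC-like to B-like cells was 8.14 in place of 6.37. Whether such droplets held both cell types was not tested. A comparison of lymphocytes with and without a Cdkn1a UMI was not made, since no library had 20 CD4 or CD8 T-like cells with one and only library 4, with 24, had 20 B-like cells.

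**Figure D4:**
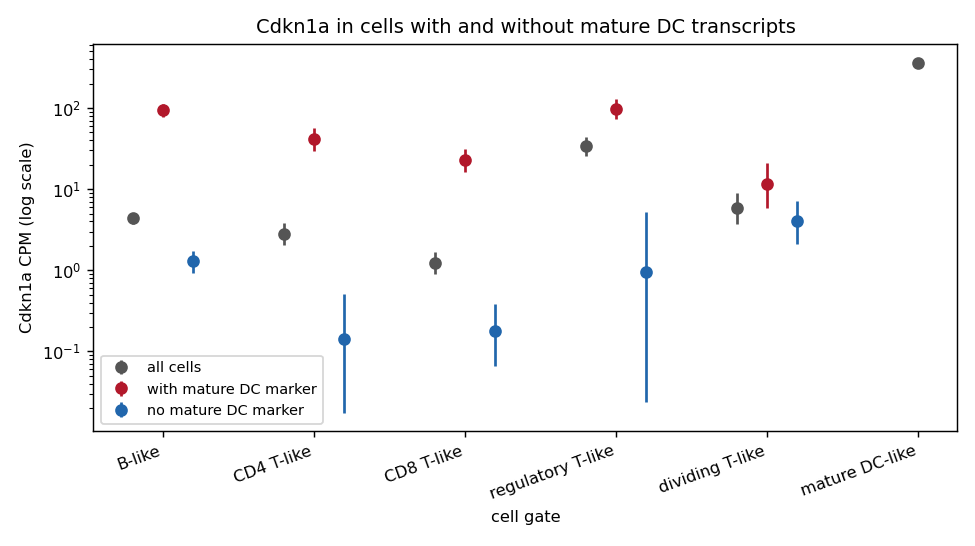
Cdkn1a level (CPM, log axis) in 5 lymphocyte gates and in mature DC-like cells, with exact 95% Poisson intervals: all cells in grey, cells with mature DC transcripts in red and the other cells in blue. In B-like cells the markers are Fscn1, Ccl22, Ccl17 and Apol7c, and in T cell gates all 8 markers of the mature DC gate. Regulatory T-like cells stood at 98.5 CPM with and 0.945 CPM without them, and 65 of the 74 with a marker had Socs2.

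Germinal centre B-like cells, the B cells that mutate and select their antigen receptors, differed from other B-like cells in both directions. In the 2 usable libraries, 5 of 28 members tested were higher (17.9%) and 10 lower (35.7%), beside 20.1% higher and 21.8% lower among all 9497 genes tested. With no further cells left out, the share called higher was near that of genes at large, and the share called lower was above it. The median log2 ratio was 0.01 over members and -0.06 over all genes tested. Median depth was 12030 UMIs per cell against 3785 in B-like cells.

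Fas, a long-used marker of germinal centre B cells, measured 108 and 105 CPM in libraries 1 and 2 against 8.14 and 7.75 CPM in B-like cells (log2 ratio 3.74, 95% interval 3.45 to 4.04). Rps27l measured 406 and 412 CPM against 158 and 155 CPM (log2 ratio 1.38). Rrm2b, the p53-inducible ribonucleotide reductase subunit that supplies nucleotides, measured 93.2 and 109 CPM against 47.4 and 45.3 CPM (log2 ratio 1.13). These genes were higher in both libraries. Bax differed less, with 160 and 173 CPM against 95.7 and 98.4 CPM (log2 ratio 0.78). Ckap2, a spindle protein of dividing cells, measured 29.4 and 45.4 CPM against 1.25 and 0.134 CPM (log2 ratio 5.75, resting on 11 UMIs in B-like cells). Ckap2 passed the count filter only through its high germinal centre level; with the filter set on B-like cells alone 4 of 27 members were higher and 10 lower, beside 17.6% and 23.0% of all genes tested.

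The 10 lower members were Ephx1, Sesn1, Cdkn1a, Plk2, Btg2, Ercc5, Plk3, Xpc, Pmaip1 and Gadd45a. Ephx1, microsomal epoxide hydrolase, measured 6.00 and 4.17 CPM against 45.8 and 43.0 CPM (log2 ratio -3.13), the largest difference of the 10. Sesn1 (log2 ratio -1.53) and Btg2 (-1.14, at 142 and 129 CPM against 297 and 299 CPM) belong to the genes of resting lymphocytes. The repair genes Ercc5 (-1.08), an excision endonuclease, and Xpc (-0.96) were lower as well. Plk2 (-1.20), Plk3 (-1.03), Pmaip1 (-0.76) and Gadd45a (-0.63) rest on 7 to 35 UMIs in germinal centre B-like cells, and the 95% counting intervals of Plk3 and Pmaip1 reach above 0. Cdkn1a had 0 UMIs in library 1, which allows up to 1.64 CPM, and 3.24 CPM in library 2, against 3.38 and 5.48 CPM in B-like cells. The B-like level over all libraries fell to 1.29 CPM without cells carrying mature DC transcripts. Library 2 of the germinal centre gate lay above that level, so no direction is read for Cdkn1a although it met the rule. Without the cells carrying mature DC transcripts 6 members were lower. The share of all genes called lower in that setting is not given here. The 11 handling-stress genes, immediate-early genes switched on by tissue dissociation, summed to 176 and 177 CPM in germinal centre B-like cells against 435 and 435 CPM in B-like cells, and 5 of 8 tested were lower; their part in the lower members was not tested.

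**Figure D5:**
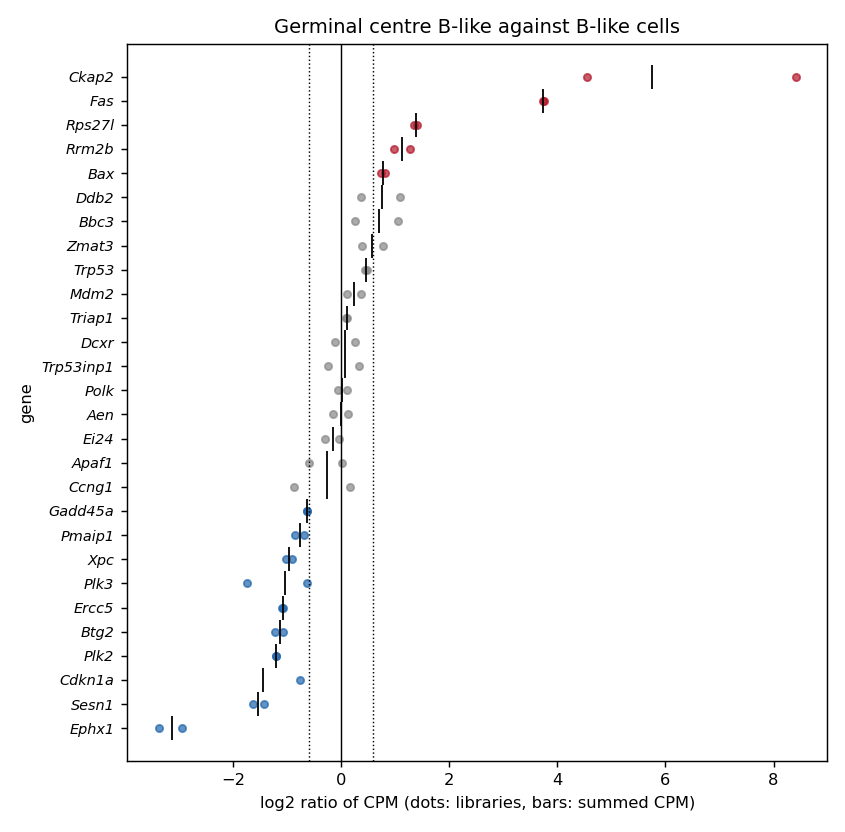
Log2 ratio of CPM in germinal centre B-like over B-like cells for the 28 members tested; dots are libraries 1 and 2, black bars the ratio of CPM summed over both, and dotted lines the 1.5-fold limits. Red marks the 5 members called higher, blue the 10 called lower; library 1 is not drawn for Cdkn1a, where it had 0 UMIs.

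Division markers split the germinal centre gate. Germinal centre B-like cells with at least 2 of 5 division genes numbered 70 and 98 in libraries 1 and 2, and those without numbered 54 and 33. Rrm2b measured 100 and 119 CPM in the dividing cells and 71.8 and 42.4 CPM in the others, beside 47.4 and 45.3 CPM in B-like cells. Fas was the reverse, at 96.7 and 101 CPM in dividing and 141 and 131 CPM in non-dividing cells, both far above B-like cells. Btg2 stood at 113 and 103 CPM in dividing cells and at 229 and 304 CPM in the others, which came near the 297 and 299 CPM of B-like cells. Rps27l measured 435 and 442 CPM in dividing and 320 and 216 CPM in non-dividing cells. With the dividing cells left out, 0 members were higher and 3 (Sesn1, Ercc5 and Ephx1) were lower, but only 15 could be tested, and Fas was not among them. In that setting 10.5% of genes at large were higher and 14.0% lower. The log2 ratio was then 0.30 for Rrm2b and -0.16 for Btg2.

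Dividing T-like cells were set against the 7754 other T-like cells of the CD4, CD8, regulatory and gamma-delta gates. Of 21 members tested, 2 were higher (9.52%) and 1 lower (4.76%), beside 16.7% higher and 5.11% lower among all 7645 genes tested. Rps27l measured 425, 431, 546 and 389 CPM in dividing T-like cells and 132, 139, 132 and 132 CPM in the others (log2 ratio 1.74), a gap with no overlap. Apaf1 measured 26.0, 17.3, 25.7 and 26.1 CPM against 8.60, 7.0, 6.81 and 6.20 CPM (log2 ratio 1.73). Bbc3 was lower, with 7.23, 7.11, 6.19 and 9.32 CPM against 20.9, 21.6, 20.3 and 18.8 CPM (log2 ratio -1.45). Bax, at a log2 ratio of 0.80, missed the rule in library 2 alone, where its level was 143 CPM against 98.1 CPM. Btg2 was at 143 CPM against 196 CPM in library 1, inside the limit, and at 103, 74.3 and 74.6 CPM against 200, 163 and 156 CPM in libraries 2 to 4, so its call turned on library 1. Without library 1, 5 members were lower, and over the other settings the number lower ran from 0 (thinned to 1500 UMIs, where 4 members were tested) to 6 (median-ratio scaling). The share of all genes called lower in these settings is not given here, so these counts are no result about the members. Of these cells, 16.2% carried a mature DC marker and 25.4% had over 2 UMIs of Cd74, a gene of antigen-presenting cells; without the cells carrying a mature DC marker, and when thinned, Apaf1 could not be tested and Rps27l was the member higher. Ckap2 fell short of the expected count and stood at 68 CPM in dividing T-like cells. Depth differed, at a median of 17745 UMIs per dividing T-like cell, and 4 dividing T-like cells held 99.6% of that gate's UMIs of the globin gene Hbb-bs.

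Rps27l was thus higher in germinal centre B-like, dividing T-like and mature DC-like cells. The mitosis list was at 1735 CPM in germinal centre B-like cells, 1779 CPM in dividing T-like cells and 22.2 CPM in mature DC-like cells. Within the germinal centre gate, Rps27l was at 435 and 442 CPM in dividing and 320 and 216 CPM in non-dividing cells. The part of division in the Rps27l level was not tested.

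Classes of lymphocytes without division markers were compared next. B-like cells had 5 of 27 members tested higher (18.5%) and 4 lower (14.8%) than CD4 T-like cells, beside 14.0% and 9.42% of all 10088 genes tested. Plk2, a stress-responsive polo-like kinase, had 3.76, 4.27, 7.86 and 6.64 CPM in B-like cells against 1.46, 0.296, 0.986 and 0.487 CPM, on 12 UMIs in CD4 T-like cells. Plk2 passed the count filter only through its B-like level; with the filter set on CD4 T-like cells alone 4 of 25 members were higher and 4 lower, beside 9.48% and 12% of all genes tested. The other higher members were Dcxr (log2 ratio 2.22), Pmaip1 (1.92), Gadd45a (1.19) and Sesn1 (0.86). Lower in B-like cells were the death genes Bbc3 and Fas, with Ddb2 and Ccng1. Bbc3 measured 3.63, 3.34, 2.73 and 3.05 CPM against 16.9, 21.3, 16.0 and 16.1 CPM (log2 ratio -2.46). Fas measured 8.14, 7.75, 5.35 and 6.64 CPM against 29.8, 23.1, 26.6 and 30.7 CPM (log2 ratio -1.98). For both genes every B-like value lay below every CD4 T-like value. Ddb2, a sensor of UV lesions, had a log2 ratio of -0.99 and Ccng1 one of -0.85. The BH3-only genes therefore split, with Pmaip1 higher and Bbc3 lower in B-like cells.

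Gadd45a, a growth arrest gene, measured 12.6, 14.3, 15.8 and 16.1 CPM in B-like cells, 5.55, 6.21, 8.13 and 5.84 CPM in CD4 T-like cells, 4.11, 3.73, 2.99 and 4.18 CPM in CD8 T-like cells, and 25.6, 17.2, 26.3 and 30.8 CPM in mature DC-like cells. Its levels in these 4 gates did not overlap. Bax did not meet the rule between B-like, CD4 T-like and CD8 T-like cells and its levels there overlapped. It measured 90.2, 95.5, 102 and 92.0 CPM in CD4 T-like cells and 90.4, 97.7, 94.9 and 86.4 CPM in CD8 T-like cells, beside the 94.6 to 98.4 CPM of B-like cells. Zmat3, an RNA-binding p53 target, measured 4.13, 4.94, 5.58 and 3.86 CPM in B-like cells and 11.4, 8.58, 7.15 and 9.01 CPM in CD4 T-like cells, with every CD4 T-like value above every B-like value. It did not meet the rule, since the log2 ratio in library 3 was -0.36. In mature DC-like cells Zmat3 had 5.69, 1.57, 9.48 and 12.5 CPM on 31 UMIs.

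CD8 T-like cells had 0 of 25 members tested higher and 0 lower than CD4 T-like cells, beside 2.34% and 2.86% of all 9737 genes tested. The log2 ratio was -0.69 for Ephx1, -0.61 for Btg2 and -0.61 for Ccng1, negative in all 4 libraries but short of 1.5-fold in at least 1. Regulatory T-like cells, which restrain immune responses, had 1 of 18 members higher (5.56%) and 0 lower than CD4 T-like cells, beside 3.27% and 1.03% of all 5513 genes tested. The member was Trp53inp1, with 105, 107, 124 and 87.0 CPM against 59.9, 57.7, 46.1 and 47.0 CPM (log2 ratio 1.01, 95% interval 0.78 to 1.27). Phlda3, which was not tested, stood at 10.0 CPM in regulatory T-like and 1.74 CPM in CD4 T-like cells, and at 8.51 and 1.14 CPM in the cells of these gates without mature DC markers. Gamma-delta T-like cells had 0 of 10 members higher and 0 lower, beside 2.62% and 1.22% of all 3518 genes tested, with Rps27l closest at 196, 201, 199 and 182 CPM against 125, 127, 136 and 120 CPM.

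Across libraries the members varied about as much as other genes. A gene was called variable when its highest library was at least 1.5 times its lowest with exact 95% Poisson intervals that did not overlap. In B-like cells 1 of 27 members tested was called (3.70%), beside 5.96% of all genes tested. That member was Plk2, lowest in library 1 (3.76 CPM) and highest in library 3 (7.86 CPM). In CD4 T-like cells 1 of 23 was called (4.35%), beside 6.11% of all genes, namely Triap1, an inhibitor of apoptosis, at 21.6, 34.6, 24.4 and 27.0 CPM. In CD8 T-like cells 2 of 26 were called (7.69%), beside 4.4% of all genes. Zmat3 measured 10.2, 7.71, 5.65 and 7.77 CPM there, and Polk, a translesion DNA polymerase, 10.9, 8.95, 7.36 and 5.44 CPM. The median ratio of highest to lowest library was 1.21 for members and 1.23 for all genes in B-like cells, 1.33 and 1.30 in CD4 T-like cells, and 1.21 and 1.22 in CD8 T-like cells. Trp53, Mdm2, Bax and Ccng1 were not called in any of the 3 gates.

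Some members were nearly silent in these nodes. Eda2r, a receptor of the tumour necrosis factor family, had 3 UMIs in mature DC-like cells and 0 in B-like cells, which allows up to 0.0847 CPM there. Perp, a membrane protein of p53-dependent death, had 8 UMIs in mature DC-like cells and 2 in B-like cells. Ddit4l, an mTOR inhibitor, had 7 and 2. Slc19a2, a thiamine transporter, stood between 0.676 and 2.57 CPM in the 8 gates shown in the plot of levels. Psrc1, a spindle-associated gene, measured 10.7 CPM in germinal centre B-like, 8.51 CPM in dividing T-like and 7.93 CPM in mature DC-like cells and 0.395 CPM in B-like cells. These 5 genes and Phlda3 are the 6 members that could be tested in no comparison. Aen, Ei24, Polk, Tnfrsf10b, Triap1 and Zmat3 were tested and never called higher or lower between gates.

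Further genes of the pathway were read from lists. Of 17 further p53 targets measured, 5 of 11 tested were higher and 2 lower in germinal centre B-like cells (45.5% and 18.2%, beside 20.1% and 21.8% of all genes), including Gtse1 (log2 ratio 3.86), a p53-binding protein of dividing cells, Pidd1 (2.44) and Pltp (-2.29). In mature DC-like cells 1 of 5 tested was higher, the phosphatase gene Dusp5 (4.51), and 2 were lower, beside 14.5% and 24.6% of all genes. With the count filter set on B-like cells alone, 3 of 9 of these targets were higher in germinal centre B-like cells and 0 of 4 in mature DC-like cells. The matching shares of all genes were 17.6% and 12.2%. Of 40 genes of damage sensing and repair, 21 of 38 tested were higher and 1 lower in germinal centre B-like cells (55.3% and 2.63%), and 17 of 34 were higher with the filter set on B-like cells alone, beside 17.6% of all genes. The checkpoint kinase Chek1 (6.37) and the histone H2afx (4.08) were among the 21 higher, and Atr (-1.24) was lower. Which of the genes named from these lists passed the count filter only through a high level is not given here. The median log2 ratio of this list was 0.89, beside -0.06 over all genes. In dividing T-like cells 12 of 26 tested were higher (46.2%) and 0 lower, beside 16.7% and 5.11% of all genes, with H2afx at 3.45. The mitosis list was higher in 10 of 10 genes tested in germinal centre B-like cells and in 7 of 7 in dividing T-like cells. With the filter set on the second gate alone, 1 and 0 of its genes could be tested. Dividing T-like cells were gated on division genes, so high mitosis genes there are no separate result. The part of mitosis in the repair list was not tested. In mature DC-like cells 2 of 27 repair genes tested were higher (7.41%) and 9 lower (33.3%), beside 14.5% and 24.6% of all genes, with Xrcc6, a subunit of the Ku end-joining complex, at -2.40, and the median was -0.55 beside -0.25 over all genes. CD8 T-like cells had 1 of 34 higher and 0 lower than CD4 T-like cells, beside 2.34% and 2.86% of all genes. B-like cells had 7 of 37 higher and 1 lower than CD4 T-like cells, beside 14.0% and 9.42% of all genes. With the filter set on CD4 T-like cells alone 3 of 33 were higher, beside 9.48% of all genes. Regulatory T-like cells had 0 of 20 in either direction, beside 3.27% higher and 1.03% lower among all genes. Gamma-delta T-like cells had 0 of 9 in either direction, beside 2.62% and 1.22%.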

How the data were processed

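Droplet 3' (version 3) single-cell libraries of 4 mice were used. The deposited matrix holds raw UMI counts, made by the authors with cellranger 5.0.0 per the file headers and on build mm10 per the submitters' processing notes; the gene and barcode tables are other text. Strand handling in counting is not given in the sources used here. Cells were gated on marker counts and UMIs were summed per gate and library and scaled to CPM. No significance test was run: gates were compared within each library by a rule of size, and treatment could not be compared because libraries are not tied to groups. A test of gates paired by library was not run, and 4 of 11 planned gate comparisons had too few cells. Members and lists were chosen with earlier results of these data known. Named genes were every called member, up to 12 per comparison and direction, and 8 members given throughout: Trp53, Mdm2, Cdkn1a, Bax, Ccng1, Phlda3, Zmat3 and Gadd45a. Of the kept cells, 34.4% fell into no gate and were left out, among them 77 that met 2 or more gates. Doublets called by Scrublet (scanpy 1.11.5; 106, 119, 230 and 445 cells in libraries 1 to 4) were kept in the main values and removed in an alternative. Positions come from GENCODE vM21 on the same build and promoter windows from RefSeq. Python 3.11.15, numpy 2.4.6, scipy 1.17.1 and pandas 2.3.3 were used.

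Simulated data, with a dispersion of 0.05 drawn apart for each gate and library and 200 genes changed 3-fold in each comparison, were used to test the fold rule. It called at most 2.60% of unchanged genes in 1 direction (germinal centre against B-like) and recovered between 77.4% of raised genes (gamma-delta against CD4 T-like) and 95.0% (germinal centre against B-like). The library rule called between 0.954% (B-like) and 1.46% (CD4 T-like) of genes that differed by counting noise alone, and between 46.4% and 52.7% once the same dispersion was added. In the data the library rule called 5.96% of genes in B-like, 6.11% in CD4 T-like and 4.4% in CD8 T-like cells. The simulated dispersion therefore differs from these data, and the rates above hold for the simulation only. Library differences beyond counting noise are what the library rule detects, and its calls cannot tell treatment, mouse and preparation apart.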

Additional observations from a re-analysis of the deposited data

How the results depend on the processing

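No paired analysis was possible because library numbers are not tied to the mice that share replicate numbers in the labels. Of 42 single-gene calls between gates, compared in 406 alternative values, 389 kept their call, 17 lost it and 0 changed direction. Leaving out a library or changing only the count filter cannot undo a call, so those values kept it by construction. Lost calls were 5 of 8 without division markers, 4 of 39 under the stricter cell filter and 3 of 42 with median-ratio scaling. A further 3 of 40 were lost without mature DC transcripts, 2 of 18 when thinned and 0 of 42 without Scrublet doublets. Calls that could no longer be tested are not among these values. In germinal centre B-like cells the number of lower members was 6 with at least 500 genes and at most 5% mitochondrial UMIs; with cells thinned to 1500 UMIs it was 2 higher and 2 lower of 9 tested; without cells carrying mature DC transcripts, a setting chosen after seeing the data, it was 6 lower; without division markers it was 0 higher and 3 lower. In dividing T-like cells lower members numbered 6 under median-ratio scaling, 3 under the stricter cell filter, 0 (with 1 higher) when thinned, 2 (with 1 higher) without mature DC transcripts, and 1 to 5 with 1 library left out, 5 without library 1 and 3 without library 4. In regulatory T-like cells higher members numbered 0 when thinned, where 4 were tested, and 1 to 3 with 1 library left out (3 without library 1, 2 without library 3). CD8 T-like cells had 1 lower member with an expected count of at least 3, with that count taken from CD4 T-like cells alone (added after seeing the data), when thinned, and without mature DC transcripts; with 1 library left out they had 0 to 1 higher and 0 to 2 lower, both maxima without library 4. B-like cells had 3 higher members than CD4 T-like cells when thinned. Gamma-delta T-like cells had 1 higher and 1 lower with an expected count of at least 3, and 0 to 1 in each direction with 1 library left out (higher without library 3, lower without library 2). Mature DC-like cells had 2 higher of 5 tested when thinned. Variable members in B-like cells numbered 0 with 99% intervals, 2 under the stricter filter, 2 when thinned, and 0 to 1 with 1 library left out (0 without library 3). In CD4 T-like cells they numbered 0 with 99% intervals, 0 under the stricter filter, 0 when thinned and 2 without mature DC transcripts. In CD8 T-like cells they numbered 1 with 99% intervals, 1 under the stricter filter, 1 when thinned, and 1 to 2 with 1 library left out (1 without library 1 and without library 4). Thinning and stricter filters leave fewer members to test, and for the other changes the cause was not tested. The counts in this section stand without the share of all genes called in the same setting. They show only how the calls moved and are no result about the members. Median-ratio scaling moves every log2 ratio by the median of all genes, which was -0.25 in mature DC-like, 0.20 in dividing T-like, 0.15 in regulatory and gamma-delta T-like and -0.12 in CD8 T-like cells. The germinal centre comparison rests on 2 libraries and could not be made without either. Depth limits the 6 untested members and the small gates, where intervals cover counting error only.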
